A study of Homo sapiens with 2 samples.

Results

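Complement is a set of plasma proteins and cell surface proteins that mark and lyse microbes and damaged cells, and 35 of its genes were followed here in a human hepatoma (liver cancer) line, HepG2, after exposure to amorphous silica nanoparticles (SiO2-NP). The genes were taken from a list of complement components, regulators and receptors, grouped by arm. All 35 had a probe (a transcript cluster of the Affymetrix array, read out as 1 value) with exactly 1 gene symbol, out of 18417 genes measured that way. The study comprised 1 array of HepG2 cells exposed to 100 mg/L SiO2-NP for 24 h and 1 array of control HepG2 cells, both grown in MEM medium and both from about 300 ng of total RNA. The labels name no separate cultures, no particle size and no vehicle for the control, and HepG2 is a single tumour line without the other cells of the liver.

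Hepatocytes make most of the complement proteins of the blood. The classical arm starts when C1q binds antibody or other ligands and its partner proteases C1r and C1s cut C4 and C2. The lectin arm starts when mannose-binding lectin or ficolins bind sugars, and the alternative arm amplifies on any surface through C3, factor B and factor D. All arms converge on C3 and C5, and the terminal proteins from C5b to C9 form the membrane attack complex, while soluble and membrane-bound regulators protect host cells.

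The values are log2 intensities, and the difference is SiO2-NP minus control on the log2 scale. Each group is a single array, which gives no error between replicates and allows no test, and every difference describes these 2 arrays. Pearson's r between the arrays was 0.994 over the probes, and the array medians were 6.69 (SiO2-NP) and 6.65 (control). A gene is called expressed (9209 genes) when the mean of its 2 values is at or above the median of all genes, 7.26. This filters on level alone, and a low value may be a weak transcript or none. Over the expressed genes the median difference was -0.03, with the central 95% between -0.37 and 0.28. Of the 10 hepatocyte markers chosen, the 9 analysed here were all expressed, with ALB, which encodes albumin, at 13.41 after SiO2-NP and 13.50 in the control. In bulk RNA, fewer cells of a type and less RNA per cell cannot be told apart.

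Complement genes differed little between the exposed and the control cells. Of the 35 members, 21 were expressed and 14 were under the level filter. The expressed members had a median difference of 0.03 and ranged from -0.21 (C5) to 0.36 (VTN). Of these 21, 1 was at least 1.2-fold higher after SiO2-NP, against 2.99% of all expressed genes, and 0 were at least 1.2-fold lower, against 7.53%. At 1.5-fold, 0 members were higher and 0 lower, with backgrounds of 0.141% and 0.25%. The count of 1 in 21 at 1.2-fold is close to the background and is no result about the group.

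The direction was mixed as well. Of the 21 expressed members, 13 were above the control and 8 below it, so that 61.9% were above, against 40.2% of all expressed genes. That background depends on scaling: after centring on the median 50% of the expressed genes and 14 of the 21 members were above the control, and after quantile normalization 53.5% of the expressed genes and again 14 members. The member that crossed 0 under each scaling was C4BPA.

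**Figure D1:**
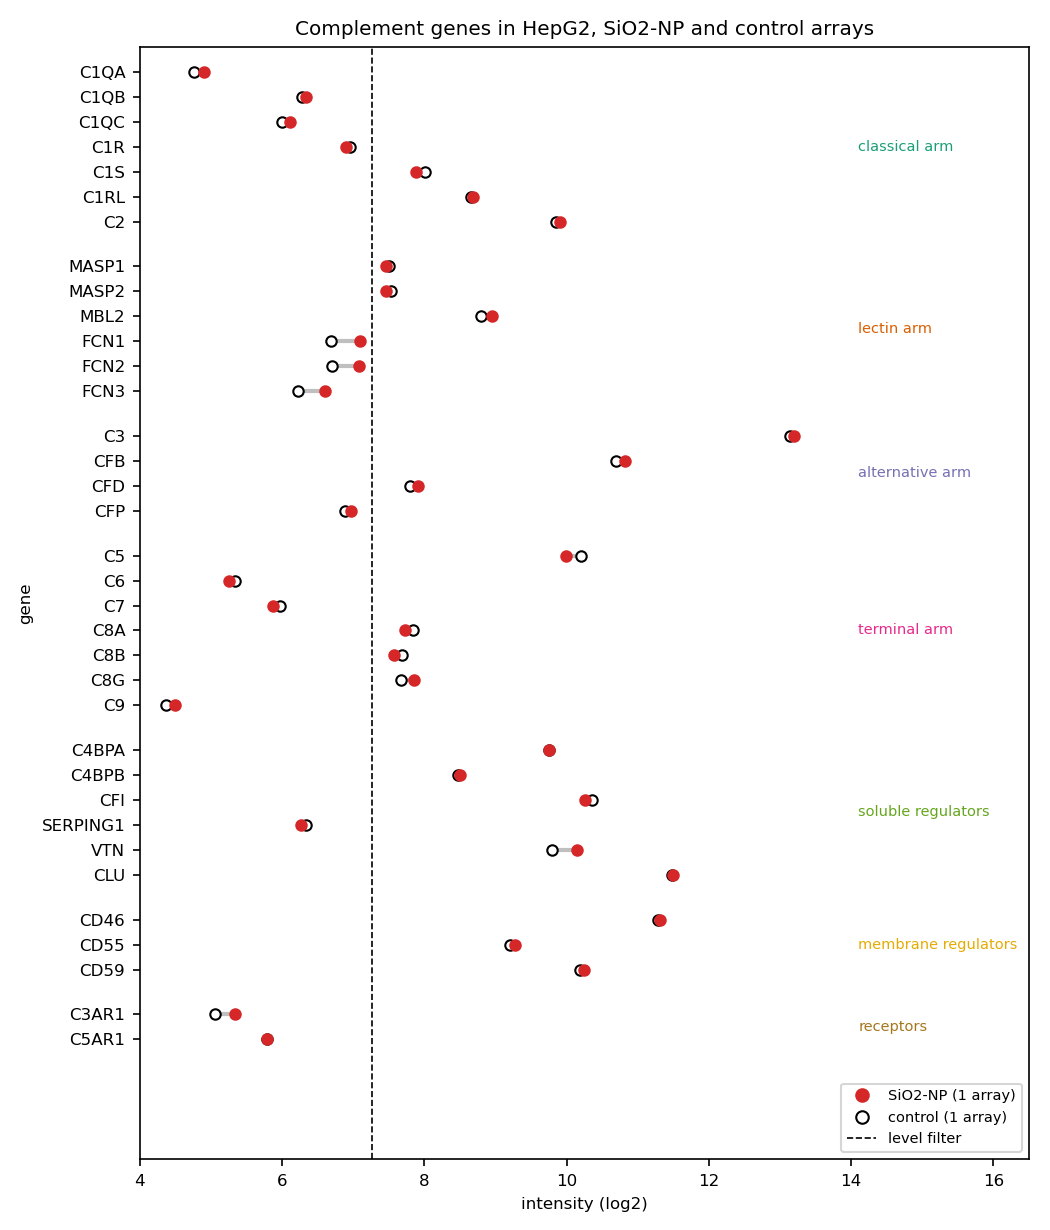
Log2 intensity of each of the 35 complement genes in the SiO2-NP array (filled red) and the control array (open), grouped by arm, with the level filter as a dashed line. The points of most genes nearly coincide, and the widest gaps are those of FCN1, FCN2, FCN3, VTN and C3AR1. Levels of different genes come from different probes and are not compared with each other.

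Among the soluble regulators, VTN had the largest difference of the expressed members. VTN encodes vitronectin, an adhesive plasma protein that keeps the C5b-7 complex from inserting into membranes. Its intensity was 10.15 after SiO2-NP and 9.79 in the control, a difference of 0.36 or 1.28-fold. Of all expressed genes, 3.90% were as far from 0 or farther, and 98.9% had a lower difference. The difference was 0.39 after centring on the median and 0.40 after centring on a running median of genes of like level. It was 0.41 after quantile normalization. These scalings moved no expressed member by more than 0.06, too little to bring VTN under 1.2-fold.

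The other soluble regulators lay close to the control. CFI, the protease factor I that cuts C3b and C4b, had 10.26 after SiO2-NP and 10.35 in the control, a difference of -0.10. The chains of C4b-binding protein, the cofactor of factor I for C4b, had 9.75 against 9.76 (C4BPA) and 8.50 against 8.47 (C4BPB). CLU, which encodes clusterin, a chaperone that also binds the terminal complex, had 11.49 in both arrays. SERPING1, the C1 inhibitor, was under the level filter with 6.27 after SiO2-NP and 6.33 in the control. The 5 expressed soluble regulators had a median difference of 0.0014, and VTN was the one with a difference past 1.2-fold.

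The promoters of VTN, of CFB and of C5 are shown because they belong to the expressed member with the largest positive difference, to the convertase gene of the alternative arm and to the expressed member with the largest negative difference. Each runs 250 bases before to 50 bases after the gene's start as annotated by RefSeq on GRCh38.p14. Capitals mark matches, on either strand, to motifs of factors known to act on liver or acute-phase genes: TTGCNNAA for C/EBP, TTCNNNGAA for STAT, GAAANNGAA for IRF, GTTAATNAT for HNF1 and CAAAGTCCA for HNF4. The motifs were picked with the differences known.
VTN (chr17:28370258-28370557, minus strand): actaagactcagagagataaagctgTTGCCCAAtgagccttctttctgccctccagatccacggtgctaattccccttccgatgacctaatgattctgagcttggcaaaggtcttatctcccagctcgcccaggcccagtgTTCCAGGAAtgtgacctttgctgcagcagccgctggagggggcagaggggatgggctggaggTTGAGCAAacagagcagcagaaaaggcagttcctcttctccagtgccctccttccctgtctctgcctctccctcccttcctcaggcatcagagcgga
CFB (chr6:31945845-31946144, plus strand): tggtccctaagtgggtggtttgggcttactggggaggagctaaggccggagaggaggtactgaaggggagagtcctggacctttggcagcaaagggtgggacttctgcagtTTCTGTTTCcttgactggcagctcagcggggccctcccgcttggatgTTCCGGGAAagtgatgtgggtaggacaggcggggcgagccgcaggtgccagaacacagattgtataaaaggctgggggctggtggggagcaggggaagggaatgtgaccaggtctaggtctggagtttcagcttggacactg
C5 (chr9:121074816-121075115, minus strand): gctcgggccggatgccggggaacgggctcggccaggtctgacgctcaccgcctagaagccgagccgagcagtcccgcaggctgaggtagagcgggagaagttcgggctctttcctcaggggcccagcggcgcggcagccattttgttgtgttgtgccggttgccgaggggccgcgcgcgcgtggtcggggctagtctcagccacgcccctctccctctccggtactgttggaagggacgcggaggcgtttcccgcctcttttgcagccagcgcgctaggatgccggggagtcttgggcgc

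The VTN window held 2 C/EBP matches and 1 STAT match, the CFB window 1 STAT and 1 IRF match, and the C5 window no match to these letters. Of the 28 members with a promoter in the table, 8 held the STAT letters (28.6%, against 7.88% of 27305 promoters of the same length) and 8 the C/EBP letters (28.6%, against 10.6%). The HNF1 letters were in 1 member (C4BPA), or 3.57%, against 0.751% of all promoters, the IRF letters in 2 members (C8A and CFB), or 7.14%, against 8.29%, and the HNF4 letters in 0 members, against 0.359%. None of the matches overlapped in the windows shown. Of the 6 expressed members with STAT letters, 5 were above the control (C1RL, CD59, CFB, MBL2 and VTN) and MASP2 was below it, while 10 of all 17 expressed members with a listed promoter were above. Those with C/EBP letters were above in 3 of 3, with IRF letters in 1 of 2 and with HNF1 letters in 0 of 1. These counts overlap: the 3 with C/EBP letters (C1RL, MBL2 and VTN) also held STAT letters, and CFB held STAT and IRF letters. As the motifs were picked with the differences known, no conclusion is drawn from the counts. A match is a run of letters, and binding was not measured.

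The membrane regulators, which guard the cells' own surface, differed by less than 0.10. CD46, a cofactor for factor I, had 11.31 after SiO2-NP and 11.29 in the control. CD55, which speeds the decay of convertases, had 9.27 and 9.21, and CD59, which blocks C9 insertion, had 10.24 and 10.18. All 3 were above the control, beside 40.2% of all expressed genes as deposited, with a median difference of 0.06. This became 0.11 after quantile normalization, which moved the median of all expressed genes to 0.01.

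The alternative arm had its 4 members slightly above the control. As deposited, 40.2% of all expressed genes and 64.3% of all genes under the filter were above it. CFB, which encodes the convertase subunit factor B, had 10.82 after SiO2-NP and 10.69 in the control, a difference of 0.13. Its 3 probes differed by 0.13, 0.13 and 0.14. Of the expressed genes, 36.0% were as far from 0 as CFB. CFD, the protease that activates factor B, had 7.91 and 7.80, a difference of 0.11. C3, the component shared by all arms, was near the top of the array's range at 13.19 and 13.14, where the difference was 0.05. CFP, which encodes properdin, the stabiliser of the convertase, was under the filter at 6.97 and 6.88. The 3 expressed members had a median difference of 0.11, within the central 95% of expressed genes.

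In the terminal arm, the 4 expressed members did not move one way. C5, whose fragments are the anaphylatoxin C5a and the seed of the membrane attack complex, had 9.99 after SiO2-NP and 10.20 in the control, a difference of -0.21 or 1.16-fold lower. Of the expressed genes, 17.4% were as far from 0, so this size was common on these arrays. The chains of C8 diverged. C8A had 7.73 and 7.84, and C8B had 7.57 and 7.68, both a difference of -0.11. C8G, the small lipocalin chain bound to C8 alpha, had 7.85 after SiO2-NP and 7.67 in the control, a difference of 0.18. These signs were the same under all 3 scalings, which moved no expressed member by more than 0.06. C6, C7 and C9, the remaining pore proteins, were under the filter, with differences of -0.08, -0.10 and 0.13. The median of the 4 expressed terminal members was -0.11.

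**Figure D2:**
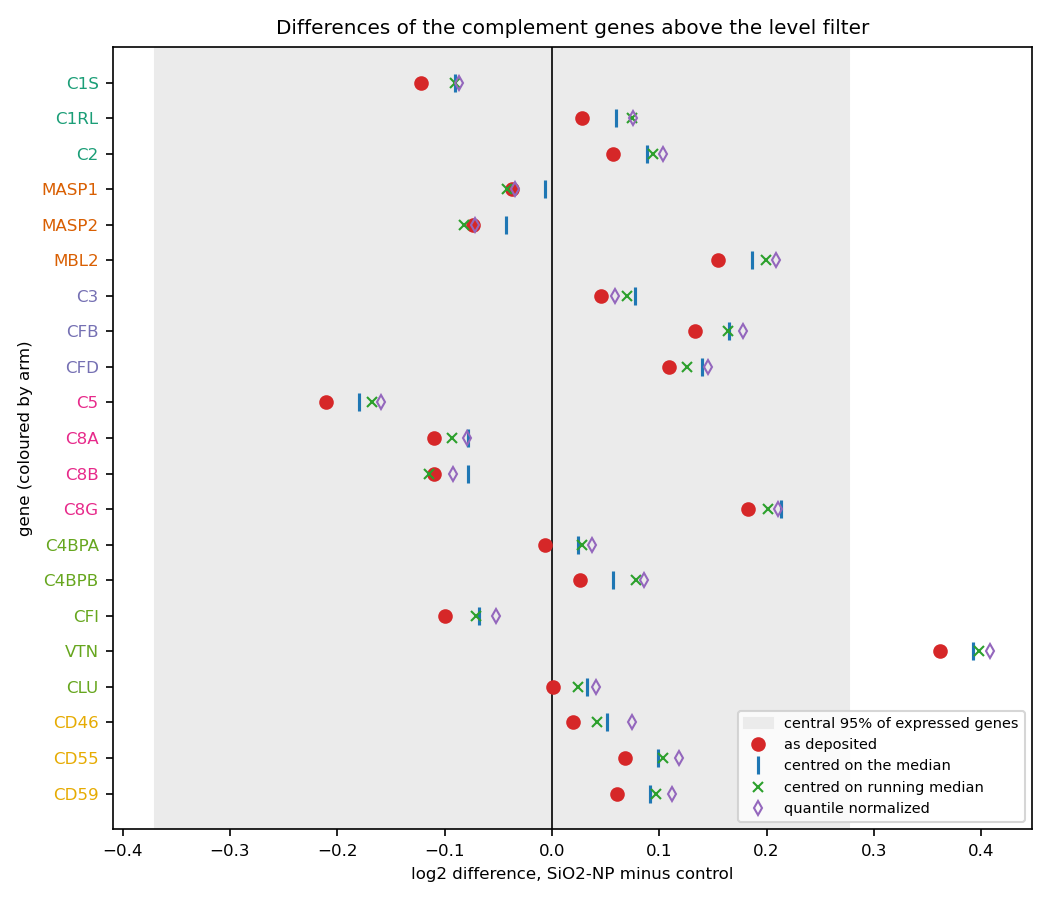
Log2 difference (SiO2-NP minus control) of the 21 expressed complement genes as deposited and under 3 other scalings, with gene names coloured by arm. VTN lies at 0.36 as deposited, outside the grey central 95% of expressed genes, and the others lie inside it, from -0.21 (C5) to 0.18 (C8G).

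The classical arm was expressed in part. C2, the protease subunit of the C3 convertase, had 9.91 after SiO2-NP and 9.85 in the control, and its 3 probes each differed by 0.06. C1S, the protease that cuts C4 and C2, had 7.89 and 8.01, a difference of -0.12. C1RL, a C1r-like protease, had 8.68 and 8.65, a difference of 0.03. C1R itself, the protease that activates C1s, lay just under the filter at 6.90 and 6.95. The C1q chains C1QA, C1QB and C1QC, made mainly by macrophages, were all under the filter, at 4.90, 6.33 and 6.11 after SiO2-NP and at 4.77, 6.28 and 5.998 in the control. Their differences of 0.14, 0.05 and 0.11 stood beside a median of 0.07 for all genes under the filter. Probes that listed C4A and C4B together were left out, so C4 is not analysed here.

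The lectin arm held an expressed part near the control and a dim part with larger differences. MBL2, mannose-binding lectin, had 8.95 after SiO2-NP and 8.79 in the control, a difference of 0.15. The proteases that it carries, MASP1 and MASP2, had 7.47 and 7.46 after SiO2-NP and 7.50 and 7.53 in the control, differences of -0.04 and -0.07. The 3 ficolins, lectins that recruit the same proteases, were each about 1.3-fold higher but under the level filter. FCN1 (M-ficolin, known from monocytes and granulocytes) had 7.09 after SiO2-NP and 6.68 in the control, a difference of 0.41. FCN2 (L-ficolin, made in liver) had 7.08 and 6.70, a difference of 0.38. FCN3 (H-ficolin, made in liver and lung) had 6.60 and 6.22, also a difference of 0.38.

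Genes under the filter leaned the same way as the ficolins. Of the 9208 genes under the filter, 64.3% were above the control and 13.5% were at least 1.2-fold higher, against 5.41% at least 1.2-fold lower. Of the 14 members under the filter, 4 were at least 1.2-fold higher (FCN1, FCN2, FCN3 and C3AR1) and 0 lower. At 1.5-fold 0 were higher and 0 lower, beside 0.521% and 0.489% of the dim genes. As far from 0 as the ficolins or farther were 5.17% (FCN1), 7.60% (FCN2) and 7.40% (FCN3) of the dim genes. With each gene centred on the running median of its level, which sets the dim genes' median to 0, the differences were 0.35 (FCN1), 0.31 (FCN2) and 0.30 (FCN3), still past 1.2-fold.

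FCN1 and FCN2 are neighbouring coding genes on chromosome 9 with similar sequence, and their probes may read both. Their promoters, from the same RefSeq table and of the same length, are shown with their longest identical run in capitals.
FCN1 (chr9:134917863-134918162, minus strand): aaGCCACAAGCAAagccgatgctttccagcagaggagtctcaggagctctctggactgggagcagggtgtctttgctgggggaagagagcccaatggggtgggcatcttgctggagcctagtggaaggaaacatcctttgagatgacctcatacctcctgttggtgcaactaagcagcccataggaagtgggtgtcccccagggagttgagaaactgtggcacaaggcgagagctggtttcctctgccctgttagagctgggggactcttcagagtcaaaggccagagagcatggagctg
FCN2 (chr9:134880560-134880859, plus strand): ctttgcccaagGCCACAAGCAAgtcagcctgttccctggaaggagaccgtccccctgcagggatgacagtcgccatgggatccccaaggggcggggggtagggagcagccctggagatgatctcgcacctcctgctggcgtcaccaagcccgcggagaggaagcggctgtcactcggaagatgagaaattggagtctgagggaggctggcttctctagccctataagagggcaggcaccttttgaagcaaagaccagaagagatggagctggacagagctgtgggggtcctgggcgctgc

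The longest identical run was 11 bases, and a global alignment matched 185 bases over 342 columns. No other pair of promoters was aligned, so these numbers have no background and no likeness is read from them. The transcripts, which the probes read, were not compared.

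The receptors were both under the filter. C3AR1, the receptor for C3a, had 5.33 after SiO2-NP and 5.05 in the control, a difference of 0.28, which became 0.20 after centring on a running median. C5AR1, the receptor for C5a, had 5.78 in both arrays. Both are known mainly from myeloid cells, as are FCN1 and properdin. Of 11 macrophage and leukocyte markers, 2 were expressed. CD68 had 9.49 after SiO2-NP and 9.61 in the control, and LYZ had 13.27 and 13.23. The other 9 were dim, between 3.71 and 6.84 after SiO2-NP, and all 9 were above the control, with a median difference of 0.18, beside 64.3% above and a median of 0.07 over all dim genes. Their median was 0.10 after centring on the running median. The log2 intensities of all 11 summed to 72.9 after SiO2-NP and 71.3 in the control, and none is listed at 0, since the lowest value of either array is 2.08. Their part in the differences of the ficolins and C3AR1 was not tested.

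**Figure D3:**
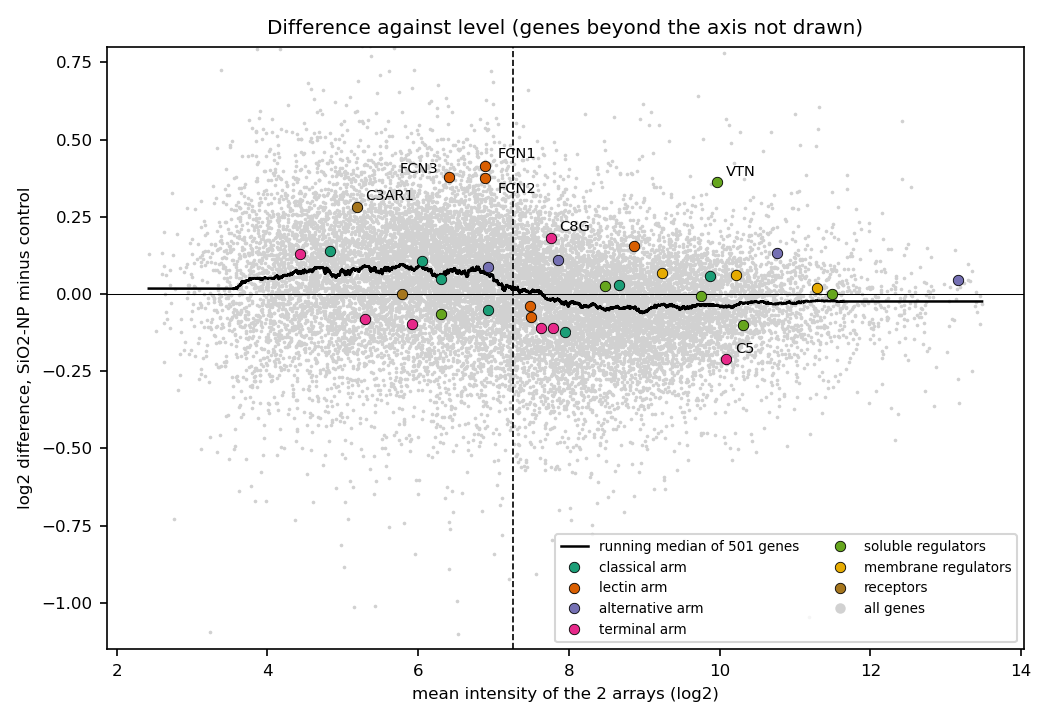
Log2 difference (SiO2-NP minus control) against mean log2 intensity of the 2 arrays, with all genes in grey, complement genes coloured by arm, the running median as a line and the level filter dashed. The running median lies above 0 among dim genes and below 0 among bright ones, and the ficolins and C3AR1 lie left of the filter while VTN and C5 lie right of it.

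Many complement genes sit side by side in the genome, and neighbours were set beside each other. RefSeq order was followed on each chromosome, and each member was paired with the next member when at most 1 coding gene lay between them. This gave 10 pairs, and 7 of the 10 had differences of the same sign. Pairs of members with another member between them were not counted. The background is not built alike, since it counts every pair of measured coding genes at these distances, and 52.6% of its 29739 pairs shared a sign. In 4 of the 7 both genes were dim, where most genes lay above the control, though C6 and C7 lay below it. The pairs are not independent, since C1QC, C4BPA and C1R are each in more than 1 pair. C8A and C8B both differed by -0.11. C2 (0.06) and CFB (0.13) shared a sign, as did C6 (-0.08) and C7 (-0.10), C1S (-0.12) and C1R (-0.05), FCN1 and FCN2, and both adjacent pairs among the C1q genes. C1R and C1RL differed in sign, and so did C4BPA with each of its neighbours C4BPB and CD55, at differences that were all within 0.07 of 0.

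Of 25 further complement genes listed, 19 were measured and 3 of these were expressed, all below the control with a median of -0.23. As deposited, 5503 of all 9209 expressed genes were below it. CPN1, the catalytic subunit of carboxypeptidase N, which inactivates the anaphylatoxins C3a and C5a, had 8.67 after SiO2-NP and 8.96 in the control, a difference of -0.30. Of the expressed genes, 7.45% were as far from 0. CPN2, the regulatory subunit of the same enzyme, had 11.04 and 11.27, a difference of -0.23. C1QBP, a mitochondrial protein that also binds C1q, differed by -0.06. CPN1 was the 1 gene of the 3 at least 1.2-fold lower, where the background was 7.53%. Among the 16 dim genes of the list, CR1 (4.90 and 4.46) and VSIG4 (5.29 and 5.02), receptors for C3b, were at least 1.2-fold higher, and they were chosen with their values known. These 2 of 16 are at the background of 13.5% of dim genes.

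Related liver lists also had medians near 0. The median was -0.0011 over 13 expressed acute-phase genes, -0.01 over 14 expressed coagulation genes and 0.03 over the 21 complement genes. The spread was wider among acute-phase genes, with an SD across genes of 0.21, than among complement (0.13) and coagulation genes (0.11). HAMP, which encodes hepcidin, differed by -0.40 (9.47 after SiO2-NP and 9.87 in the control), and HPX, which encodes hemopexin, by 0.36 (7.53 and 7.17), a difference of the size of that of VTN. SERPINC1, antithrombin, differed by -0.32 and F7, coagulation factor VII, by -0.17. Among 10 expressed genes that induce hepatic complement or carry the signal, 8 were above the control with a median of 0.04, beside 40.2% of all expressed genes as deposited and 53.5% after quantile normalization. STAT3, the transcription factor downstream of IL-6, had 11.16 after SiO2-NP and 10.94 in the control, a difference of 0.22. The factor CEBPD differed by 0.16 and the interferon gamma receptor IFNGR1 by -0.17. SOCS3, the STAT3 feedback gene, and IRF1 were the 2 measured genes of this list under the filter, and the rule for naming did not cover them. They went opposite ways. SOCS3 had 6.44 after SiO2-NP and 6.30 in the control, a difference of 0.13, and IRF1 had 6.86 and 7.05, a difference of -0.19.

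**Figure D4:**
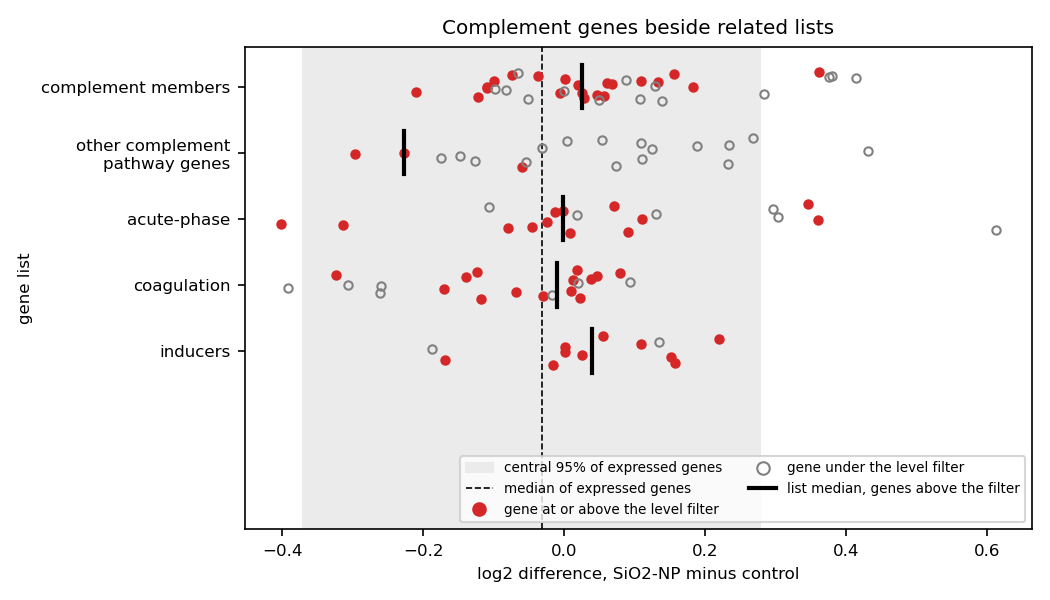
Log2 difference (SiO2-NP minus control) of each gene in the complement list and 4 related lists, filled when expressed and open when under the level filter, with list medians of expressed genes as bars. The complement, acute-phase, coagulation and inducer medians lie between -0.01 and 0.04, and the further complement genes have -0.23 over 3 genes.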

How the data were processed

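The deposited table holds 1 value per probe and array, taken as log2 intensity from its range (2.08 to 14.35). Per the submitters' processing notes, RMA and MAS5 were applied, and the sources do not say which of them made these values. If RMA did, it equalised the arrays' distributions before summarising to 1 value per probe, which hides any shift common to the whole transcriptome. The deposited values themselves are not exactly equal in distribution, with array medians of 6.69 (SiO2-NP) and 6.65 (control). Probes were named through the platform annotation: of 33297, 19460 had 1 symbol and were kept, 1754 had several and 12083 none. Probes of a gene were averaged (18417 genes). All 35 members kept their symbol in the RefSeq table of GRCh38.p14. The build behind the probes is not given in the sources used here, so gene coordinates are not printed apart from the promoter windows.

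Groups came from the sample titles, and no test was run. Members and lists were chosen with earlier results of these data known. Every member is accounted for. Of the further complement genes and the inducers, the 3 expressed genes with the largest absolute difference were named, and of the acute-phase and coagulation lists the 2 largest. Alternatives were other level filters, centring, a running median of 501 genes, quantile normalization, other probe rules and means. Precision is limited by having 2 arrays. The scripts were tested on simulated data. The software was Python 3.11.15 with pandas 2.3.3, NumPy 2.4.6 and, for figures, matplotlib 3.10.9.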

Additional observations from a re-analysis of the deposited data

How the results depend on the processing

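Each of 16 group values was recomputed under up to 9 alternatives. Of 137 values, 129 kept within 0.05 on the log2 scale (medians) or 1.5 times (counts). Many of these could hardly move, so the tally says little about robustness. Centring on the median shifted each median by 0.03, under the 0.05 allowed. The probe rules moved no member by more than 0.0036, and the filter passed on either array kept the same 21 members. Without the level filter, 5 of 35 members were at least 1.2-fold higher in place of 1 of 21, 22 of 35 were above the control in place of 13 of 21 (a like share, beside 52.3% of all 18417 genes), the lectin arm's median was 0.27 in place of -0.04 because the ficolins enter, and the median of the further complement genes was 0.054 over 19 genes in place of -0.23 over 3. That list's median was -0.060 when probes with several symbols were kept, which adds C4A and C4B. The membrane regulators' median was 0.11 after quantile normalization in place of 0.06. With means in place of medians, the lectin arm had 0.015 against -0.04 and the soluble regulators 0.056 against 0.0014, as MBL2 and VTN weigh more in a mean. Among expressed genes, those at least 1.2-fold higher and lower numbered 275 and 693 as deposited, 367 and 517 after centring on the median, 344 and 523 after centring on a running median, and 392 and 474 after quantile normalization. The expressed members' own counts stayed at 1 and 0 under these 3, which moved no expressed member by more than 0.06. The filter at the 75th percentile left too few members for a median of the classical, lectin and terminal arms, the receptors had no expressed member, and pseudocounts were not needed on log2 values. No paired analysis was possible because there is 1 array of each condition, which also leaves no replicate to omit.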
